A study of Mus musculus with 9 samples.

Results

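The genes described here are the 110 genes whose signal varied least between the 9 mice of the series, chosen by the SD of their log2 signal over all 9 arrays. Eligible genes had a signal of at least 3 times the noise, called detection here, in some probe on every array, and a gene was kept when the SD of its quantile-normalized log2 signal was under 0.11. Of 15674 genes with a symbol, 5887 were detected on all 9 arrays, and 124 of these (2.11%) had an SD under 0.11. Of the 124 genes, 14 were left out because their symbols belong to ribosomal, respiratory chain, ATP synthase or proteasome families, and 110 genes remained, which are 1.94% of the 5681 genes that the rule could have kept. Since the SD selected the genes, all values of SD and range below are a description and no test of uniformity.

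The arrays were single-colour Applied Biosystems arrays of 60-mer probes read by chemiluminescence, each hybridised with RNA from the jejunum of a single male OF1 mouse. OF1 is an outbred stock, and the mice were 7 weeks old and belonged to generation 3 of a feeding trial. Mice 7, 8 and 10 received feed B, mice 1, 3 and 4 feed K, and mice 4, 8 and 11 feed G, so that equal numbers in different feeds are different animals. The labels do not say what the letters of the feeds stand for, and none was taken as the control. The RNA came from whole tissue, in which fewer cells of a type and less RNA per cell cannot be told apart.

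Genes with uniform expression in a tissue are of practical use as reference genes (RGs), against which the mRNA of other genes is set in RT-qPCR. The usual RGs are housekeeping genes of glycolysis, the cytoskeleton, the ribosome or protein degradation, which every cell needs and which were picked by convention more than by measured expression stability. Most housekeeping genes start transcription from promoters rich in CG dinucleotides and without a TATA box, and sites of Ets factors (CCGGAAG), Sp factors (GGGCGG), YY1 (ATGGCGG) and NRF1 are common in such promoters.

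Every marker of enterocytes with a probe, 9 of 12 listed, was detected on all 9 arrays, among them Fabp2, the intestinal fatty acid-binding protein, and Vil, whose current name is Vil1 and which is a protein of the brush border. Both pancreas markers with a probe were detected on none. The log2 of the summed signal of the ileal markers Fabp6 and Slc10a2 differed widely between mice of the same feed. It ran from 7.81 to 17.86 in feed B, from 9.30 to 12.30 in feed K and from 8.52 to 19.52 in feed G. Fabp6 was detected on 8 arrays and Slc10a2 on 6. None of the genes in these or the other marker lists was among the 110, and the part of the markers in any result was not tested. On each array 33.7% to 48.1% of the probes were detected. No batch could be read from the array tables.

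Of the 110 genes, 85 had an entry in RefSeq's promoter table (GRCm38.p6), whose windows run from 250 bases before to 50 bases after the start of a gene; the first entry of each gene was used. The windows of the uniform genes held between 2 and 50 CG dinucleotides with a median of 22, and their median GC content was 60.3%. For the 4680 detected genes in the table the medians were 21 CG dinucleotides and 60.7%, and for all 27025 genes of the table they were 7 and 52.7%. The uniform genes and the detected genes thus had medians 1 CG dinucleotide apart, and both lay far above that of all genes.

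The windows of the 4 genes with the smallest SD that the table holds are printed to show what such promoters look like, and that of Ctss is printed as a member whose window is poor in CG. Mettl9 lies at chr7:121034195-121034494, plus strand. Ccz1 lies at chr5:144014804-144015103, minus strand, Rabgap1 at chr2:37443035-37443334, plus strand, Preb at chr5:30960278-30960577, minus strand and Ctss at chr3:95526536-95526835, plus strand. Sequences are given 5′ to 3′ on the strand of the gene, and capitals mark the letters of the motifs searched on both strands, which were GGGCGG of Sp factors, TATAAA of the TATA box, CCAAT of NF-Y, CCGGAAG of Ets factors, TGACGTCA of CREB, ATGGCGG of YY1 and the motif of NRF1; no motif contains another.
Mettl9: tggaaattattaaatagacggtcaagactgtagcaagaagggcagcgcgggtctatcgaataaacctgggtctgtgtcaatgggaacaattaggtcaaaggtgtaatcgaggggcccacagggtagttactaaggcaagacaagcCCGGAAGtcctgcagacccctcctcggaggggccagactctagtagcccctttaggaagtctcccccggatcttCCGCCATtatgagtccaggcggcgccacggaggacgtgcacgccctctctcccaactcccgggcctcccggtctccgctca
Ccz1: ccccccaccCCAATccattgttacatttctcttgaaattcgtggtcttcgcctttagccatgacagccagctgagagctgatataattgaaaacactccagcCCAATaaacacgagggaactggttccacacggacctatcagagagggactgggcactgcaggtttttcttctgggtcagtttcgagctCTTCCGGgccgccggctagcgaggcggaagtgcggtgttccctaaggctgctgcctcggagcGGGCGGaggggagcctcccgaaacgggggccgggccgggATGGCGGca
Rabgap1: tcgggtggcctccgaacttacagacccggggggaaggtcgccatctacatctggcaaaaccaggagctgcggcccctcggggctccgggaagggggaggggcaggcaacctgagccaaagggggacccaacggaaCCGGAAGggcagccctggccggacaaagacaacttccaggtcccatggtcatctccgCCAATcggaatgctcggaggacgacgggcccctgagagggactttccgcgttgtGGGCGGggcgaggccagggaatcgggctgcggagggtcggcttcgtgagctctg
Preb: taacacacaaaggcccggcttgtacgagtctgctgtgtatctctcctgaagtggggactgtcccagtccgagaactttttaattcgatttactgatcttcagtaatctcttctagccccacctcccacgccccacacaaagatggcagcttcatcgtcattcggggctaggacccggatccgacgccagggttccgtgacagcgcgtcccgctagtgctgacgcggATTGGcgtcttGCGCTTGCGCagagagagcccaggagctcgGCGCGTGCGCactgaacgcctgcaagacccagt
Ctss: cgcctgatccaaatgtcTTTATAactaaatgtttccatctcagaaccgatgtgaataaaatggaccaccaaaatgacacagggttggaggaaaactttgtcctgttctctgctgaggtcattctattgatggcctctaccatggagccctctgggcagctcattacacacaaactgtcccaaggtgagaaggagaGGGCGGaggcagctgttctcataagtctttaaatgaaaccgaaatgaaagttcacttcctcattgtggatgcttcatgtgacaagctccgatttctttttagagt

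The Mettl9, Ccz1, Rabgap1 and Preb windows held 17, 19, 23 and 24 CG dinucleotides, and that of Ctss held 5. The letters CCGGAAG stood in the windows of Mettl9, Ccz1 and Rabgap1, and the NRF1 motif stood in that of Preb in 2 places. The Ctss window was the only one of the 5 with TATAAA, on the opposite strand and far from the start. Over all 85 windows of the uniform genes CCGGAAG was present in 34 (40.0%), against 19.8% of the detected genes and 9.12% of all genes of the table. GGGCGG was found in 56.5% of the uniform genes, 65.0% of the detected genes and 35.9% of all genes, so its share was below that of the detected genes only. CCAAT was found in 42.4%, 39.8% and 37.9% in the same order. The NRF1 motif was found in 12.9%, 11.1% and 4.78%, and ATGGCGG in 12.9%, 8.76% and 4.19%. TGACGTCA was present in 4.71%, 3.50% and 1.88%, and TATAAA in 7.06%, 8.10% and 14.2%. These shares are a description, and a match of letters does not show that a factor binds there.

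Of the uniform genes, 6 had fewer than 5 CG dinucleotides in their window. They were Ms4a8a with 2, Prkar1a and Dido1 (named 6720461J16Rik in the files) with 3 each, and Ikbke, Slc35b3 and Smap1 with 4 each. Their share of 7.06% compares with 8.70% of the detected genes and 38.3% of all genes. At the other end stood Dlgap4 with 50 and the small GTPase gene Rap1b with 48.

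The smallest SD was that of Sbds, whose product helps the large ribosomal subunit to mature. Its log2 signal was 13.11, 13.21 and 13.13 in mice 7, 8 and 10 of feed B, 13.08, 13.14 and 13.12 in mice 1, 3 and 4 of feed K, and 13.12, 13.13 and 13.14 in mice 4, 8 and 11 of feed G. The mean was 13.13 ± 0.034 (SD, n = 9), and the highest mouse was 1.09 times the lowest. Apart from mouse 8 of feed B, which was the highest, the mice lay within 0.06 of each other and the feeds overlapped.

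Mettl9 (0610012D09Rik in the files), which encodes a methyltransferase, was second with 11.23 ± 0.050 (SD, n = 9). Its values were 11.24, 11.23 and 11.19 in feed B, 11.27, 11.23 and 11.28 in feed K, and 11.12, 11.28 and 11.23 in feed G, in the order of mice given above. Ccz1 (AU022870), a subunit of the factor that activates Rab7 on late endosomes, had 12.64, 12.65 and 12.63 in feed B, 12.59, 12.50 and 12.64 in feed K, and 12.59, 12.55 and 12.49 in feed G. Its SD was 0.061, and the 3 mice of feed B lay above the 3 of feed G although the whole range was only 1.12-fold.

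Rabgap1, which switches off Rab GTPases, had 11.70, 11.78 and 11.67 in feed B, 11.78, 11.83 and 11.69 in feed K, and 11.70, 11.80 and 11.82 in feed G, with an SD of 0.062. Preb, the exchange factor that starts the coat of vesicles leaving the endoplasmic reticulum, ranged from 12.15 to 12.34 with an SD of 0.064. In both genes the mice of each feed ranged more widely than the feed means differed. The other 5 of the 10 smallest were Mtdh (2610103J23Rik) with an SD of 0.065, Mmadhc (2010311D03Rik), a protein of intracellular cobalamin handling, with 0.067, Mob4 (Prei3) with 0.071, the ubiquitin ligase scaffold Cul3 with 0.072 and the microtubule-associated Eml4 with 0.073.

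**Figure D1:**
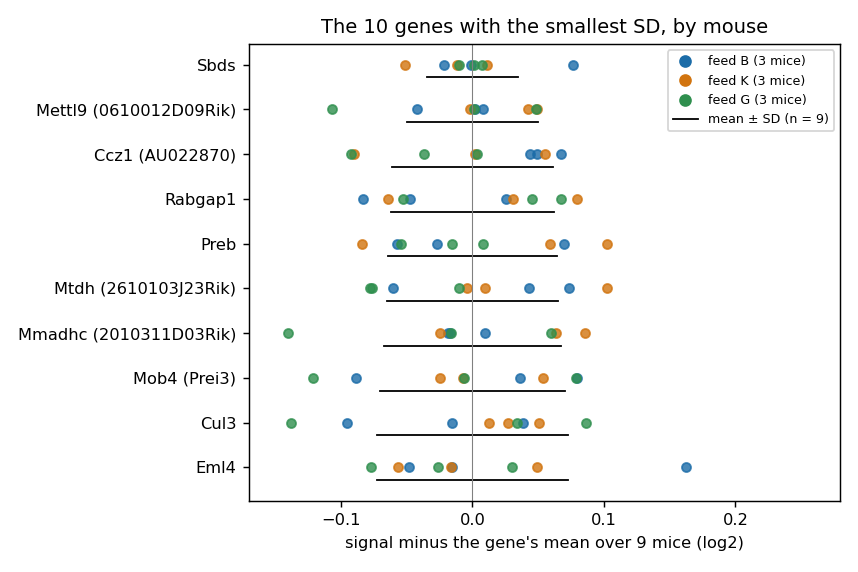
Log2 signal of the 10 genes with the smallest SD in each of the 9 mice, as the difference from the gene's mean (horizontal axis), coloured by feed; the black line under each gene spans its mean ± SD (n = 9). For Sbds 8 of the 9 mice lie close together with mouse 8 of feed B above them, and Eml4 has mouse 10 of feed B far above the other mice.

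The SDs of the 110 genes ran from 0.034 to the threshold with a median of 0.098, against a median of 0.293 for all genes detected on every array. On the linear scale, the highest mouse was between 1.09 and 1.33 times the lowest, with a median of 1.22, and the median of all detected genes was 1.86. The distribution had no gap at the threshold. Just inside it lay Tardbp, an RNA-binding protein, Fshprh1 (Cenpi), the chaperonin subunit Cct2, Tsn and Syap1, with SDs from 0.1096 for Tardbp and Cenpi over 0.1098 for Cct2 and Tsn to just under 0.11 for Syap1. Just outside lay Cnot2 with 0.1103, Coq7 with 0.111, Capza2 and Atad1 with 0.111 each, and Peci (Eci2) with 0.112.

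Uniform genes were mostly well expressed, although expression level was not part of the rule beyond detection. Their mean log2 signals ran from 9.32 for Eml4 to 15.37 for Lsr (Lisch7), with a median of 12.39, against 10.88 over all detected genes. When the detected genes were ordered by level and divided into 10 bins of equal size, the lowest bin held none of the uniform genes, the second to the fifth held 3 or 4 each, the ninth held 32 (5.43%) and the highest held 15 (2.55%). The median SD of all detected genes fell from 0.445 in the lowest bin to 0.230 in the ninth and was 0.259 in the highest.

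**Figure D2:**
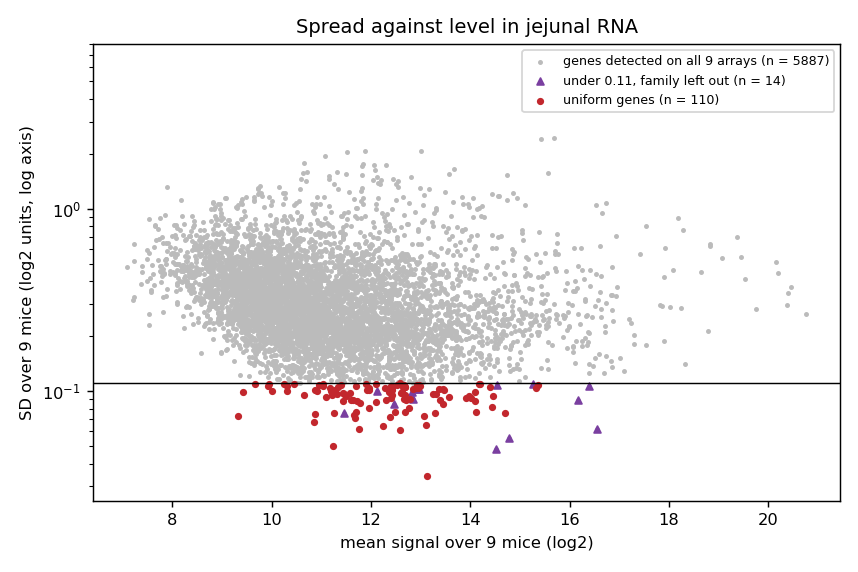
SD over the 9 mice (vertical axis, log2 units on a log axis) against mean log2 signal (horizontal axis) for the 5887 genes detected on all arrays (grey), the 110 uniform genes (red) and the 14 genes under the threshold of 0.11 (line) that were left out as members of large families (purple). The uniform genes form the lower edge of one continuous cloud and are rare below a signal of 10.

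The genes with the highest levels after Lsr, a lipoprotein receptor that also sits at contacts of 3 epithelial cells, were Tomm7 with a mean of 15.31, Spint2, an inhibitor of serine proteases on epithelial cells, with 14.70, Elob (Tceb2) with 14.45, Rac1 with 14.45 and Rab1 (Rab1a) with 14.39. They were followed by Cct2 with 14.19, the lysosomal protease Ctss with 14.17, the ubiquitin-conjugating enzyme Ube2d3 with 14.11 and Cdv3 with 14.10. The lowest after Eml4 were Tmem159 (8430420C20Rik) with 9.42, Gsk3b with 9.67, Mis12 (2510025F08Rik) with 9.93 and Dido1 with 9.94. Levels of different genes come from different probes and are no measure of relative mRNA amounts.

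Of the 110 genes, 40 fell in 1 of the functional groups that had been set up by symbol, and the largest number, 10, belonged to membrane traffic. They made up 5.18% of the 193 detected genes of that group, against 2.11% of all detected genes. Of these, 4 were Rab GTPases, the switches that direct vesicles to their targets, out of 23 detected Rab genes with a median SD of 0.197. Rab14, which acts between the Golgi and endosomes, had 12.69, 12.59 and 12.76 in feed B, 12.64, 12.64 and 12.60 in feed K, and 12.64, 12.79 and 12.77 in feed G, with an SD of 0.077. All mice of feed G lay at or above those of feed K for this gene, by less than the range within feed B.

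Rab1 (Rab1a), the Rab of transport from the endoplasmic reticulum to the Golgi, had 14.21, 14.37 and 14.48 in feed B, 14.31, 14.48 and 14.47 in feed K, and 14.28, 14.50 and 14.40 in feed G, with an SD of 0.106. Rab6 (Rab6a) of the Golgi had an SD of 0.096 and Rab2 (Rab2a) one of 0.102. The next in order were Rab18 with 0.134 and Rab11a with 0.153, and the most variable were Rab25 with 0.450 and Rab15 with 0.558. Rab33b of the Golgi had 0.197 and Rab10 0.213, and neither was a member. The other 6 of the group were Rabgap1, the coat protein Cope with 0.090, the sorting nexins Snx1 and Snx2 with 0.094 and 0.096, and the ESCRT subunits Vps25 (D11Wsu68e) and Vps28, which sort cargo into multivesicular bodies, with 0.077 and 0.104.

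The lysosome with its proton pump gave 3 of 41 detected genes (7.32%). Atp6v1e1, a subunit of the pump, had an SD of 0.090, cathepsin A (Ppgb, current name Ctsa) one of 0.104 and cathepsin S (Ctss), an enzyme of antigen-presenting cells, one of 0.109. Ctss had 14.25, 14.34 and 14.17 in feed B, 14.11, 14.14 and 14.16 in feed K, and 14.20, 14.22 and 13.94 in feed G. Mouse 11 of feed G was the lowest, and the mice of feed B lay above those of feed K.

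Mitochondrial import, carriers and matrix enzymes gave 6 of 99 detected genes (6.06%). Vdac3, a channel of the outer membrane, had 13.43, 13.37 and 13.25 in feed B, 13.34, 13.25 and 13.21 in feed K, and 13.22, 13.26 and 13.32 in feed G, with an SD of 0.076. Immt, which shapes the cristae, had an SD of 0.090 and lay higher in the mice of feed K (12.35, 12.41 and 12.36) than in those of feed B (12.33, 12.15 and 12.17). Idh3g, a subunit of isocitrate dehydrogenase, had an SD of 0.103, and the import proteins Tomm7 and Timm8b had 0.104 and 0.107. Sdhaf2 (0610038F07Rik), an assembly factor of succinate dehydrogenase, had 0.109. A further member, Ict1, is now named Mrpl58 and counted as a mitochondrial ribosomal protein, and it stayed in the set since the rule read the symbols of the files; its SD was 0.090.

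The transcription group gave 4 of 132 detected genes (3.03%), namely Polr1d (Rpo1-3), a subunit shared by RNA polymerases I and III, with an SD of 0.077, Elob with 0.093, and the Mediator subunits Med19 (2410018M14Rik) and Med8 (2210021A15Rik) with 0.095 and 0.105. G proteins, kinases and phosphatases gave 4 of 176 (2.27%), which were Prkar1a, the regulatory subunit of protein kinase A, with 0.073, Rap1b with 0.085, the phosphatase Ptpre with 0.108 and Gsk3b with 0.1096. Splicing and RNA-binding proteins gave 3 of 138 (2.17%), the helicases Ddx54 and Ddx52 with 0.088 and 0.094 and the spliceosome core protein Prpf8 with 0.104. The ubiquitin pathway gave 3 of 169 (1.78%), which were Cul3, Ube2d3 with 0.077 and Nedd8, the modifier that activates cullins, with 0.097. Shares of these 4 groups were close to the 2.11% of all detected genes.

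Translation factors gave 1 of 53 detected genes, Eif3g (Eif3s4) with an SD of 0.108, although the median SD of that group, 0.221, was below that of all genes. The cytoskeleton gave 2 of 126 (1.59%), Rac1 with 0.082 and the dynactin subunit Actr1a with 0.102. Chaperones gave 1 of 93, Cct2, and junction and epithelial membrane proteins 1 of 68, Tspan15. Membrane transporters of the Slc and Abc families, which take up nutrients in this tissue, gave 1 of 126, the nucleotide-sugar transporter Slc35b3 with 0.106, and had a median SD of 0.363. None of 149 zinc finger genes, 51 redox genes and 22 genes of nuclear transport was under the threshold. In the 4 families that the rule left out, between 5.56% of the proteasome genes and 7.94% of the mitochondrial ribosomal protein genes were under it, with Ndufa8 at 0.048 and Ndufb9 at 0.056 as the least variable. The shares are a description of these groups, and their difference from the background was not tested.

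**Figure D3:**
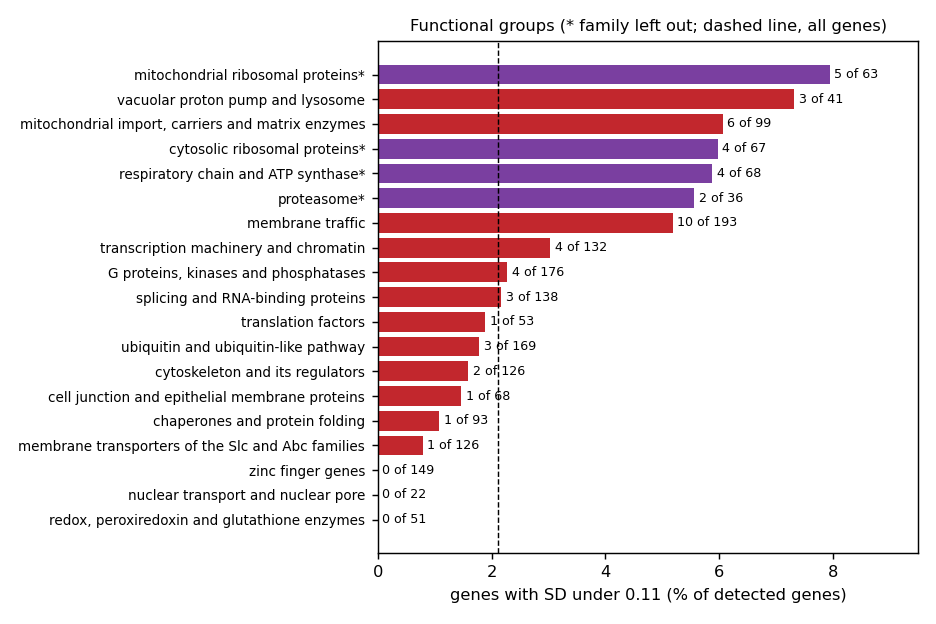
Share of the detected genes of each functional group with an SD under 0.11 (bars, percent, with the number of genes beside each bar) and the share of all detected genes, 2.11% (dashed line). Purple bars are the families left out by the rule, and red bars end between 0% for zinc finger, redox and nuclear transport genes and 7.32% for the proton pump and lysosome.

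The other 70 genes belonged to no group, and several of them are known for roles near those above. Ecsit (Sitpec, SD 0.073), Coq9 (2310005O14Rik, 0.075), Micos13 (2410015M20Rik, 0.106), Aifm1 (Pdcd8, 0.108) and Bdh1 (Bdh, 0.101) encode mitochondrial proteins. Vta1 (1110059P08Rik, 0.092), Vipas39 (AI413782, 0.101), Washc5 (E430025E21Rik, 0.097), Smap1 (0.089), Srp19 (0.105) and Ccdc47 (2610204L23Rik, 0.095) encode proteins of endosomes, vesicles or the endoplasmic reticulum. Nelfb (A730008L03Rik, 0.086), Drap1 (0.095), Ercc3 (0.0998), Mta2 (0.092), Foxo1 (0.099), Cir1 (1700023B02Rik, 0.090), Glyr1 (3930401K13Rik, 0.091) and Dido1 (0.109) act in transcription or chromatin. Sart1 (0.097), Syf2 (Gcipip, 0.104), Puf60 (2410104I19Rik, 0.108), Wtap (0.101), Wdr33 (1110001N06Rik, 0.109), Rpp21 (0.080), Poldip3 (0.088) and Tardbp (0.1096) act on RNA. These genes were sorted by role after their values had been seen.

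The remaining members of the set without a group had SDs from 0.076 upward apart from those among the 10 smallest. Among them were BC031181, BC056474 (Wdr83os), Wdr26, Sri, Ms4a8a, Elmo3, Arhgap17, Rwdd1, Banf1, Tmem159, Lad1, 2010106G01Rik (Sppl2a), Cdv3, Ikbke, Aasdhppt, G431001I09Rik (Cdc123), Jtb, Hsbp1, D10Ertd438e (Nus1), Galnt1, D7Ertd462e (Ccdc97), Osbpl9, Tor2a, Mis12, Dlgap4, Mycbp, D4Bwg0951e (Lurap1l) and BC006909 (Prr14), with Spint2, Lsr, Cenpi, Tsn and Syap1 given above. All 110 symbols could be matched to a current gene, and 45 of them have since been renamed.

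The genes that are in common use as RGs or that the study evaluated were set beside the uniform genes. Of 39 such genes with a probe, 36 passed detection in all mice with a median SD of 0.314, which is near the 0.293 of all detected genes. Of the 36 genes, 2 (5.56%) had an SD under 0.11, against 2.11% of all detected genes. Tspan15 (2700063A19Rik), a tetraspanin of epithelial cells, was one of the 110. It had 12.78, 12.84 and 12.71 in feed B, 12.69, 12.63 and 12.70 in feed K, and 12.58, 12.49 and 12.73 in feed G, with an SD of 0.105, and the mice of feed B lay above those of feed K. The ribosomal Rps29 had 0.107 and was left out by its symbol. Hprt, a purine salvage enzyme, had 0.132, and the glycolytic Gapdh (Gapd;LOC14433) had 0.140. Actb, the cytoskeletal actin, had 0.563. Others of these genes ran over the whole scale, from Plekha7 (A430081P20Rik) with 0.169 over Zfx (Zfa;Zfx, 3 probes) with 0.490 and Oaz1 (2 probes) with 0.528 to Tom1 with 1.38 and Tmem14c with 1.58, the last 2 far above the median of all detected genes. Zfx had a mean of 7.60 and lay in the lowest bin of level, whose median SD was 0.445. By RT-qPCR, a different measure in inbred and outbred mice, the study found low variation for Plekha7, Zfx, Oaz1 and Tom1. It also counted Tspan15 among its few uniformly expressed genes, and found low variation for Tmem14c apart from an outlier mouse of OF1. The study chose its own candidates partly on these arrays, and 23 of the 65 that could be matched were detected on all 9 arrays, so this list is not independent evidence.

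Of the 110 genes, 9 were measured by several probes, and for these the uniform value was that of an average. Sppl2a (2010106G01Rik), an intramembrane protease, had 2 probes with SDs of 0.312 and 0.286 over the mice, and their mean had 0.099. The correlation of both probes over the 9 mice was r = -0.79, given as a description since both were read from the same arrays. The probe pairs of BC031181, Polr1d, Galnt1, Wdr33 and Dido1 likewise ran in opposite directions, with r between -0.69 and -0.53. The rule read the average of the probes. Probes with SDs well above 0.11 could therefore be kept only where they offset each other. These negative correlations follow from the rule, and nothing about the mRNA can be read from them. Snx2 had r = -0.35, and the 3 probes of Wtap, one of which was detected on 7 arrays, had r between -0.31 and 0.51. Ube2d3 had r = -0.16, and its probes had SDs of 0.134 and 0.098. Except for this second probe of Ube2d3, no single probe of the 9 genes had an SD under 0.11. The other 101 genes had 1 probe each.

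The scanner reports an SD for each spot, from which the error of reading a spot can be set beside the spread between mice. For the 101 genes with 1 probe the median spot error was 0.037 in log2 units, and the SD over mice was a median of 2.43 times the spot error. For the 5034 detected genes with 1 probe the spot error was 0.073 and the ratio 3.77. The SD over mice was no larger than the spot error for 7 of the 101 genes. These were Mettl9 with a ratio of 0.99, Med19 with 0.95, Tmem159 with 0.91, Cenpi with 0.86, Mis12 with 0.75, Gsk3b with 0.68 and Eml4 with 0.43. For Sbds the ratio was 1.32 and for Rac1 it was 4.07. The lowest signal-to-noise ratio of any of the 110 genes was 4.00, for Gsk3b, and 108 of them had at least 5 on every array.

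The uniformity depended on how the arrays were brought to a common scale. Before any scaling the median log2 signal of the 110 genes ran from 11.53 in mouse 7 of feed B to 12.92 in mouse 3 of feed K, and their SDs ran from 0.403 to 0.588 with a median of 0.49. The SD of all detected genes had a median of 0.551 at that stage. When arrays were centred on the median of all probes, most of which were not detected, the 110 genes had SDs between 0.256 and 0.442 and no gene was under 0.11. With the assay-normalized values of the depositors the SDs were between 0.167 and 0.377 and 9 genes outside the left-out families were under 0.11, none of them among the 110. When arrays were centred on the median of the detected genes, without quantile normalization, 76 of the 110 genes were under 0.11 with a median SD of 0.101, and by count 110 genes met the rule. The rank of the genes also depended on the scaling. With the median of all probes 2.73% of the 110 genes were in the lowest 10% of SDs, and with the depositors' values 10.9% were. With the median of the detected genes it was 99.1%.

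**Figure D4:**
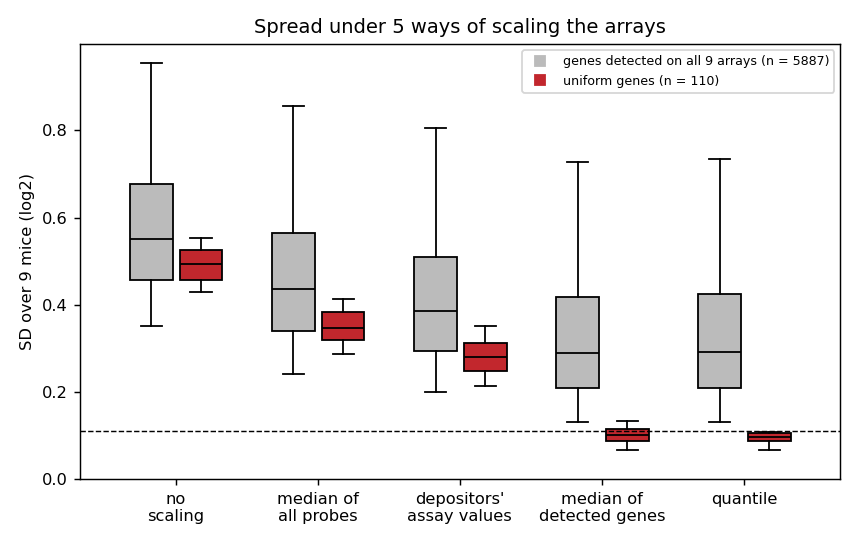
SD of log2 signal over the 9 mice (vertical axis) for all 5887 detected genes (grey) and the 110 uniform genes (red) under 5 ways of scaling the arrays; boxes span the quartiles with the median, whiskers run from the 5th to the 95th percentile, and the dashed line is the threshold of 0.11. The uniform genes lie well above the line without scaling, with the median of all probes and with the depositors' values. When arrays are set to the median of detected genes, 76 of the 110 lie under the line and the highest SD is 0.177. With quantile normalization, by which they were chosen, all lie under it.

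The array signals of the 110 genes moved together before scaling. This and the small mean deviations given next follow from the choice of genes that varied little after scaling, and are a description. The difference between their median and that of all detected genes was between 1.39 and 1.51 in log2 units on the 9 arrays. After quantile normalization, the mean deviation of the 110 genes from their own means was between -0.029 in mouse 3 of feed K and 0.030 in mouse 8 of feed B. Mouse 8 of feed B was the highest for 22 of the 110 genes, and mice 7 of feed B and 4 of feed G were the lowest for 19 each. No mouse was highest or lowest for most of them.

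To see how the genes behaved in a mouse that had no part in choosing them, the rule was applied to 8 arrays and the left-out array was read. The 8 arrays gave between 112 and 153 genes, 87 to 95 of which were among the 110. In the left-out mouse these genes deviated from the mean of the other 8 by a median of 0.096 to 0.154 in log2 units, compared with 0.175 to 0.283 for all eligible genes detected on the other 8 arrays, and they were closer than all eligible genes for each of the 9 left-out mice. Between 66.9% and 86.8% of the chosen genes, and between 40.0% and 59.9% of all eligible genes, deviated by less than 0.22. Single genes deviated by up to 1.19. The closest left-out array was mouse 8 of feed G, and the arrays with the largest deviation were mouse 7 of feed B and mouse 11 of feed G. The arrays had been quantile normalized together beforehand. The sets chosen for the 9 mice overlapped, so the 9 comparisons are not independent. Signal level was not matched, and the 110 genes had a higher median level than all detected genes.

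**Figure D5:**
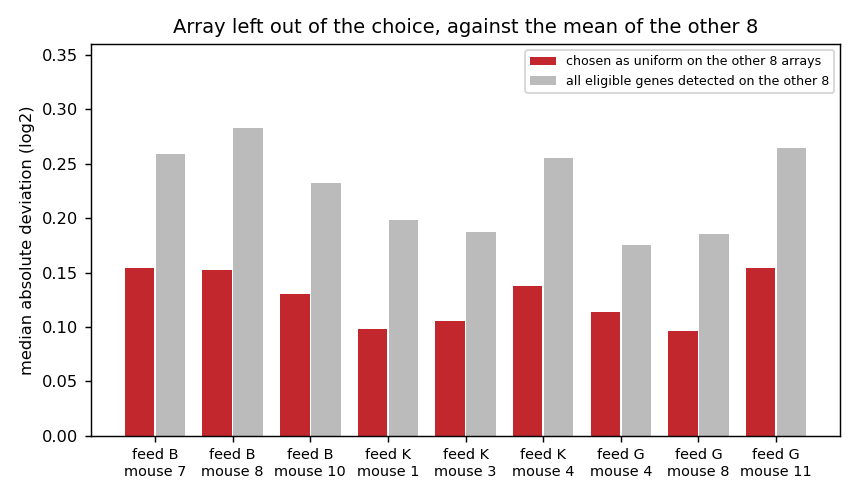
Median absolute deviation of the left-out array from the mean of the other 8 (vertical axis, log2 units) for each mouse, for genes that met the rule on those 8 arrays (red) and for all eligible genes detected on them (grey). The red bars lie between 0.096 and 0.154 and below the grey bar in each of the 9 mice.

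Whether the feed changed gene expression was tested with limma's moderated F test over 9652 genes detected on at least 3 arrays. No gene had an adjusted p under 0.05 (0% of those tested), and so none of the 110 had, and 518 genes (5.37%) but none of the 110 had an unadjusted p under 0.05. For single pairs of feeds the adjusted count was also 0 (0%) in each case. An unadjusted p under 0.05 was seen for 6.31% of the genes tested between K and B, for 5.74% between G and B and for 4.54% between G and K, and for none of the 110. The SD that chose the 110 genes includes any difference between feeds, so that nothing can be read from these counts. The fit also replaced the median residual SD of the 110 genes, 0.096, by a moderated SD of 0.198, since the common SD of all genes was 0.347.

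The differences between feeds that remained within the set were small. The widest difference between feed means was a median of 0.095 in log2 units and at most 0.199, against a median of 0.297 for all detected genes. Differences between feeds made up a median of 21.1% of the variance of a uniform gene and 23.3% of that of a detected gene. With 3 mice per feed, such a share is well above none even where feed has no effect. Neither value is therefore a measure of an effect of feed. Of the 110 genes, 54 were higher in feed K than in feed B, 50 higher in G than in B and 50 higher in G than in K. Their median log2 differences in these pairs were -0.001, -0.011 and -0.015. Over all tested genes the medians were 0.054, 0.061 and -0.007.

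Elmo3, a partner of exchange factors for Rac, had the lowest p among the uniform genes (limma F test, unadjusted p = 0.428, adjusted p = 0.906). Its log2 signals were 11.03, 11.05 and 11.09 in feed B, 11.18, 11.18 and 11.25 in feed K, and 11.02, 11.00 and 11.00 in feed G, and the feeds did not overlap. Differences between feeds were 90.9% of its variance, and feed G lay 0.20 below feed K. Actr1a had 13.56, 13.46 and 13.40 in feed B, 13.59, 13.53 and 13.52 in feed K, and 13.28, 13.40 and 13.37 in feed G, and its mice of feed G lay lowest. Ptpre was lowest in feed B, with 11.25, 11.35 and 11.25 against 11.52, 11.46 and 11.46 in feed G. The kinase gene Ikbke and the helicase gene Ercc3 were the others of the 5 with the lowest p, and both were lower in feed G, by 0.19 and 0.16 relative to feed B. With adjusted p-values of at least 0.906 by limma none of these differences passed the test. For Elmo3 the fit had replaced a residual SD of 0.032 by a moderated SD of 0.183. Since the set was chosen by a small SD over the same arrays, nothing can be read from these p-values.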

How the data were processed

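The authors deposited a scanner table for each of the 9 arrays, with the signal intensity of each spot (background-corrected and spatially normalized per the file headers), its SD, a signal-to-noise ratio score and a quality flag score, and a series table of assay-normalized intensity whose divisor is not given in the sources used here. Spots flagged over 5000 were removed, the deposited signals were quantile normalized over the arrays (arithmetic mean), and log2 values of all probes with one symbol were averaged. The number of arrays limits the precision, and p-values set differences between feeds against a moderated SD between mice of the same feed. Names were matched to GRCm38.p6 genes by RefSeq accession (13409 genes), symbol (1139) or a single synonym (765), and 361 were not matched. Feeds were compared with limma 3.58.1 in R 4.3.3 (Benjamini-Hochberg adjustment, 0.05); Python 3.11.15, pandas 2.3.3 and numpy 2.4.6 were used otherwise. Quantile normalization and limma fits were tested on simulated data.

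The members, gene groups and lists were chosen with earlier results of these data known. Named genes were the 10 with the smallest SD, the highest and lowest in level, those next to the threshold, those with several probes, reference candidates, up to 4 of each group by SD and the 5 with the lowest p between feeds; the rest were named by role after their values were seen, and a few genes are not reported here. Alternatives were other scalings, probe rules, filters, SDs within feeds, a percentile 5 floor and leaving out each array.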

Additional observations from a re-analysis of the deposited data

Results flagged for a closer look

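In 4 of the 110 genes, 1 of the 9 mice stood apart by Dixon's criterion. It divides the gap to the nearest mouse by the whole range and compares it with the 95% critical value for 9 samples. For normally distributed values of unselected genes about 1 in 20 would be flagged by chance, which is 5.5 of 110. The 110 genes were selected by SD, and the share flagged among all detected genes was not computed. Nothing is therefore read from the count of 4. For Lad1, a protein of anchoring filaments, the ratio was 0.668, and mouse 7 of feed B was lowest with 12.38 in log2 units, where the other mice had 12.60 to 12.71. For Med19 (2410018M14Rik) it was 0.632, with mouse 10 of feed B highest at 10.87 and the others between 10.56 and 10.67. For Sbds it was 0.516, with mouse 8 of feed B highest at 13.21. For Mmadhc (2010311D03Rik) it was 0.512, with mouse 4 of feed G lowest at 10.72. In all 4 genes the highest mouse stayed within 1.26 times the lowest, which follows largely from the small SD that the rule required.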

How the results depend on the processing

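The number of uniform genes, 110, was 0 with arrays centred on the median of all probes and 9 with the series table, and their median SD of 0.098 was then 0.348 and 0.281. The median deviation of a left-out array, 0.130, was 0.425 with the median of all probes, where 5 genes at most were chosen. The cause was not tested. With the brightest probe of a gene 119 genes met the rule (102 of them shared), with failed spots kept 115 (105 shared), with a signal-to-noise ratio of 5 it was 108 and with the SD within feeds 161 (89 shared). Leaving out 1 array gave 112 to 153 genes, 87 to 95 of them shared, and a median SD of the 110 genes of 0.095 to 0.098. Centring on the median of detected genes, chosen after seeing the data, gave 110 genes, 76 of them shared, and a median SD of 0.101.

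The count of genes with an adjusted p under 0.05 between the 3 feeds, 0, was 1 when genes detected on all 9 arrays were tested, and between G and B it was 1. Leaving out 1 array gave 0 to 3 genes for the 3 feeds, 0 to 10 for K against B, 0 to 3 for G against B and 0 for G against K, and the calls came when mouse 10 of feed B was left out; none of the 110 genes was called in any of these fits. With the median of all probes 17 of the 110 genes had an unadjusted p under 0.05 between G and B, as had 1797 of all 9652 genes tested. The excess of CG dinucleotides in the windows of the uniform genes was a median of 1 over detected genes and 15 over all genes of the promoter table. No paired analysis was possible because the feeds share fewer than 2 mouse numbers, and equal numbers are different mice. With 9 arrays an SD is itself uncertain, and genes next to the threshold cannot be told from those outside it.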
